A study of Mus musculus with 2 samples.

Results

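The genes described here are 34 genes of mitosis and the spindle, a list that holds mitotic cyclins and their kinase, other mitotic kinases, the machinery that starts anaphase, the spindle checkpoint, kinetochore proteins, kinesin motors and 2 markers of dividing cells. They were taken by name through every probe that carries the name or an older one; the rule uses no measured value, but the list was drawn up with earlier results known. Of the 34 genes, 32 were measured, among 9397 genes measured on the arrays in all. RNA came from the thymus of mice carrying a Pla2g10 transgene (Pla2g10-Tg/+) and of littermate controls without it. Both groups were on a C57BL/6 background and 6 months old, and each genotype was 1 pool of RNA from 4 mice. Pla2g10 encodes a secreted phospholipase A2, an enzyme that cuts fatty acids from membrane phospholipids. The promoter and cell type that drive the transgene are not given in the sources used here. Both pools were hybridised together on 2 two-colour arrays, the transgenic pool in Cy5 (red) on array 1 and in Cy3 (green) on array 2, with the control pool in the other dye.

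Mitosis separates the copied chromosomes into daughter cells. Cyclin B bound to Cdk1 drives entry, the kinases Aurka and Plk1 mature the centrosomes and help build the spindle, and the spindle checkpoint holds the cell until every kinetochore is attached. Cdc20 then activates the anaphase-promoting complex, a ubiquitin ligase, which releases the protease separase to cut the rings of cohesin between sister chromatids. In the thymus most division takes place as double-negative thymocytes, which carry neither Cd4 nor Cd8, become double-positive cells, and most double-positive cells are then at rest. Transcripts of these genes peak late in the cell cycle, and many of their promoters carry 2 short elements: the CCAAT box, which binds NF-Y, and the cell cycle homology region, written TTTGAA or TTTAAA, which binds the DREAM and B-MYB complexes.

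Promoters are shown for the 3 genes that fell in the transgenic pool (Plk1, Cdk1 and Aurka), and for Cdc20 and Mad2l1, which were added after their values were seen, as a gene with a smaller difference and as the highest gene. Each runs 5′ to 3′ from 250 bases before the RefSeq start to 50 bases after it, on GRCm38.p6. Capitals mark the CCAAT box and both forms of the cell cycle homology region on either strand, so ATTGG counts as well as CCAAT. The windows are chr7:122159185-122159484 on the plus strand for Plk1, chr10:69352863-69353162 on the minus strand for Cdk1, chr2:172370521-172370820 on the minus strand for Aurka, chr4:118437294-118437593 on the minus strand for Cdc20 and chr6:66534971-66535270 on the plus strand for Mad2l1.
Plk1: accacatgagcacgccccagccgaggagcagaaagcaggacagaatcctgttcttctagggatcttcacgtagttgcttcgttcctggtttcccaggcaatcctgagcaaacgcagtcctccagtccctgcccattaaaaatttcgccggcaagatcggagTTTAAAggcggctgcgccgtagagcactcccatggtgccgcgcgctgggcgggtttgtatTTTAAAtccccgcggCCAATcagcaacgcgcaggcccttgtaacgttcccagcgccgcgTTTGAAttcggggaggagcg
Cdk1: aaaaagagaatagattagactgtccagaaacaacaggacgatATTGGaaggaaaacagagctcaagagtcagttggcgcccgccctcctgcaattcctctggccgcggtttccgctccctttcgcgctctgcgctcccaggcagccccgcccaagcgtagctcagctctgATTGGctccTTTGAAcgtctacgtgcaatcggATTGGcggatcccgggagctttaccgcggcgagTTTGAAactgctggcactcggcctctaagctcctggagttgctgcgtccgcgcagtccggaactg
Aurka: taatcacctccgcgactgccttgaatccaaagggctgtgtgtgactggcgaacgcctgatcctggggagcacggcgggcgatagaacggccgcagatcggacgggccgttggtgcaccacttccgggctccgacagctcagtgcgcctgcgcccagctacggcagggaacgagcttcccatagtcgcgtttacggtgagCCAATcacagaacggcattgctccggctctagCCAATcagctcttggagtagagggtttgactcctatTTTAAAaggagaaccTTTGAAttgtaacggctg
Cdc20: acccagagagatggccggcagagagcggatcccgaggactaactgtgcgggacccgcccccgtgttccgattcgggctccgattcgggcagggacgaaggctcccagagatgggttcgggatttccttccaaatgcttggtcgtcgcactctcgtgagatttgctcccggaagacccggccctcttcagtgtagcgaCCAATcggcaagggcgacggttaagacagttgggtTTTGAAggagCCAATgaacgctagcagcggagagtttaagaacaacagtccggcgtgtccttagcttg
Mad2l1: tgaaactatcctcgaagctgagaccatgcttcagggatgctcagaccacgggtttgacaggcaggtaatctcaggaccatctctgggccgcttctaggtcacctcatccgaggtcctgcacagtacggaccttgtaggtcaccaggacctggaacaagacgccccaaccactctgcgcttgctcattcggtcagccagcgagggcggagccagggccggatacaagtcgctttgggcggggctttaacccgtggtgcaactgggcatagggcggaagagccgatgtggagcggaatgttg
Counting the first base after the start as 0, the Cdk1 window holds 3 CCAAT boxes, with first bases at -208, -80 and -48, and TTTGAA at -71 and -15. In Plk1 the single CCAAT box begins at -14, with TTTAAA at -89 and -29 and TTTGAA at 30. Aurka has CCAAT at -51 and -19, TTTAAA at 17 and TTTGAA at 32. The Cdc20 window has CCAAT at -53 and -8 with TTTGAA at -18 between them. The Mad2l1 window holds none of these letters.

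The RefSeq table held promoters of 29 of the 34 genes. Of these 29, 24 had a CCAAT box (82.8%, against 41.1% of the 27025 genes in the table). TTTGAA stood in 22 (75.9%, against 20.2%) and TTTAAA in 9 (31%, against 14.9%). A CCAAT box together with either form of the cell cycle homology region was found in 22 (75.9%, against 12.2%), and at least 2 CCAAT boxes in 18 (62.1%, against 13.3%). Motifs overlapped in 1 place each in Cdca8 and Ube2c. These are matches of letters in a fixed window, and binding was not measured.

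Spots well above background made up 34.1% and 28.5% in the transgenic channel and 29% and 33.2% in the control channel of arrays 1 and 2, so that the red channel had the larger share on both. The transgene could not be checked: the Pla2g10 probe (A_51_P380451) was well above background in 0 of 4 channels, and the extent of the transgene is not stated. Values below are log2 ratios of transgenic over control, given as the mean ± SD over n = 2 arrays, or normalized intensities, called levels, of 1 probe. A level includes an offset of 50, which shrinks ratios of dim probes, and levels of different probes cannot be compared. The labels number the arrays as replicates but name 1 pool for each genotype, so the arrays were taken as a dye swap of the same pools. The SD is then technical, no test across animals was possible, and no difference has a replicate check. A gene was called where its log2 ratio was at least 0.2 in size (1.15-fold) with the same sign on each array.

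Plk1, Cdk1 and Aurka fell in the transgenic thymus, by 0.38, 0.29 and 0.24 on the log2 scale. These 3 of 32 measured genes are 9.38%, and the rule called 2.34% of all 9397 genes lower. No gene of the list was called higher, where the rule called 2.99% of all genes. None reached 0.5 on each array, which 0.0532% of all genes did downward and 0.287% upward, and so none reached a mean of 1 besides, where 0.0319% of all genes were called higher and 0% lower. The dye contrast, which sets red against green in place of transgenic against control, gave 0.713% and 0.67% of all genes in its 2 directions under the 0.2 rule and 0 of the 32. All 3 calls were lost where each array was centred on its median in place of the loess fit, a setting under which the ratios of the 2 arrays ran against each other.

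The list as a whole lay slightly below 0. Its median log2 ratio was -0.07, with -0.07 on array 1 and -0.06 on array 2, beside -0.0023 over all genes. Below 0 on both arrays were 16 of 32 genes (50%, against 29.1% of all genes), and 5 were above 0 on both (28.3% of all genes). The other 11 differed in sign between the arrays, and the mean was below 0 for 21 (50.7% of all genes). Both transgenic levels lay below both control levels for 14 genes (43.8%, against 24% of all genes), and above them for 2 genes (23% of all genes). The list runs brighter than most genes, with a median intensity percentile of 82.9. Its intensity range takes in 8731 of the 9397 genes, of which 2.28% were called lower and 29% were below 0 on both arrays, so these shares are not matched to the brightness of the list. Levels summed over the 32 genes were 19109 and 19079 in the transgenic pool, against 20057 and 19770 in the control pool. Both transgenic sums were thus the lower ones. The same order held over all 9397 genes, with 3608526 and 3626995 in the transgenic pool against 3627105 and 3631529 in the control pool. Such sums weigh bright probes most, such as Mki67 (transgenic levels of 2334 and 2549), and dim ones such as Cdk1 (146 and 161) little.

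**Figure D1:**
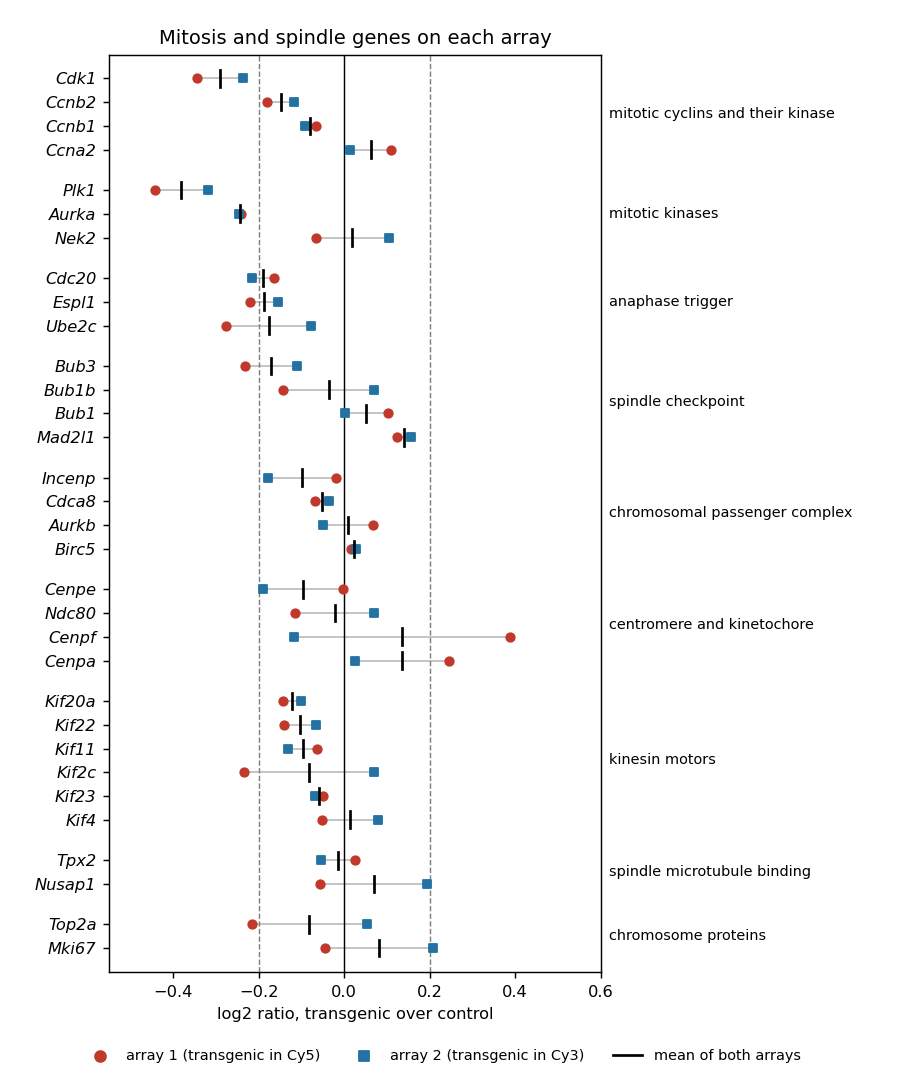
Log2 ratio of transgenic over control on array 1 (circles) and array 2 (squares) for the 32 measured genes, grouped by role, with a bar at the mean and dashed lines at 0.2 in each direction. Plk1, Cdk1 and Aurka lie beyond the lower line on both arrays, and no gene lies beyond the upper line on both.

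Among the mitotic kinases, Plk1 and Aurka carried the largest and the third largest difference of the list. Plk1, the polo-like kinase that acts on centrosomes, kinetochores and the cytokinesis machinery, had levels of 524 and 539 in the transgenic pool, against 713 and 672 in the control pool. Its log2 ratios were -0.44 and -0.32, with a mean of -0.38 ± 0.09, a transgenic level of 0.768 times the control level. The 2 transgenic levels lay below both control levels by more than the levels of either pool differed between the arrays. Aurka, the Aurora kinase of the spindle poles, had levels of 579 and 545 in the transgenic pool, against 684 and 647 in the control pool. Its ratios of -0.24 and -0.25 gave -0.24 ± 0.0035, the smallest SD between the arrays of the list, and the pools did not overlap. Nek2, a kinase that splits the centrosomes, did not follow them. It read 142 and 146 in the transgenic pool and 149 and 135 in the control pool, with ratios of -0.07 and 0.11, so that the pools overlapped. On mm8 the Plk1 probe (A_51_P344566) lies on chromosome 7 from 121960854 to 121960913, and the Aurka probe (A_51_P150912) on chromosome 2 from 172047439 to 172047498.

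Cdk1 and its cyclins did not move as 1 group. Cdk1, the kinase that cyclins A and B activate, is named Cdc2a on the array. Its levels were 146 and 161 in the transgenic pool, against 186 and 189 in the control pool. The ratios of -0.34 and -0.24 gave -0.29 ± 0.08, or 0.817 times the control level, and the pools did not overlap. Ccnb2, a B-type cyclin, had levels of 1276 and 1270.2 in the transgenic pool, against 1446 and 1378 in the control pool, a log2 ratio of -0.15 ± 0.04. The Ccnb2 pools were separate, but the difference was under the threshold on both arrays. The other B-type cyclin, Ccnb1, averaged -0.08 ± 0.02 at its brightest probe, and its 3 probes ran between -0.17 and 0.05. Ccna2, the cyclin A of dividing body cells, was the highest of this role. It read 883 and 815 in the transgenic pool, against 818 and 807 in the control pool, or 0.06 ± 0.07, with overlapping pools. The Cdk1 probe (A_51_P450033) spans mm8 chromosome 10, 68738032 to 68740441.

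The 3 genes that start anaphase were all lower on both arrays without passing the threshold on both. Cdc20, the activator of the anaphase-promoting complex, had levels of 1453 and 1492 in the transgenic pool, against 1628 and 1734 in the control pool. That is a log2 ratio of -0.19 ± 0.04, with -0.16 on array 1 and -0.22 on array 2. Espl1, which encodes separase, read 102 and 109 in the transgenic pool, against 119 and 121 in the control pool, or -0.19 ± 0.05. Espl1 is dim, and its log2 ratio was -0.35 with an offset of 0, where it passed the threshold. Ube2c, the ubiquitin-conjugating enzyme of the complex, had levels of 451 and 471 in the transgenic pool, against 546 and 497 in the control pool. Its ratios of -0.28 and -0.08 gave -0.18 ± 0.14, a wider spread between the arrays than for Cdc20 or Espl1. For all 3 the transgenic levels lay below both control levels, and the median of the 3 was -0.19. On mm8 the Cdc20 probe lies on chromosome 4 from 117930863 to 117930922, that of Espl1 on chromosome 15 from 102151247 to 102151485, and that of Ube2c on chromosome 2 from 164463721 to 164463780.

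**Figure D2:**
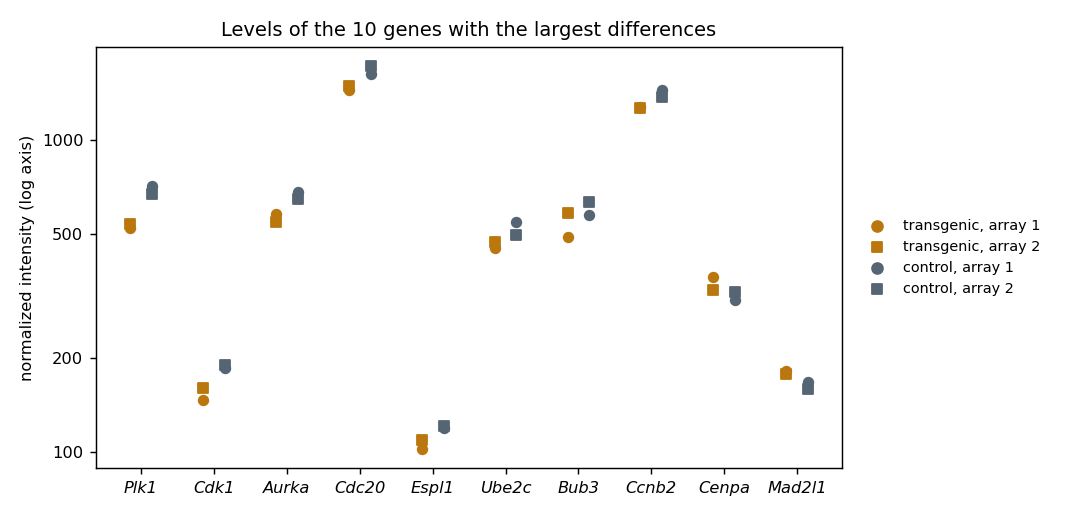
Normalized intensity (log axis) of the 10 genes with the largest mean differences in the transgenic pool (orange) and the control pool (grey) on array 1 (circles) and array 2 (squares), 1 probe per gene. The pools are separate for 9 of the 10 genes and overlap for Bub3; only Cenpa and Mad2l1 are higher in the transgenic pool.

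The spindle checkpoint genes went in different directions. Bub3, which docks checkpoint kinases at kinetochores, read 488 and 585 in the transgenic pool and 573 and 632 in the control pool. Its log2 ratio was -0.17 ± 0.09. The pools overlapped across the arrays although the transgenic channel was the lower one on each, and its other probe gave -0.22. Mad2l1, the Mad2 protein that binds and holds Cdc20, was the highest of all 32 genes. Mad2l1 had levels of 182 and 177 in the transgenic pool, against 167 and 159 in the control pool, or 0.14 ± 0.02. Both of its probes gave 0.14, and the pools did not overlap, but the ratio stayed under 0.2 on each array; with an offset of 0 the mean was 0.20. Bub1, a checkpoint kinase, averaged 0.05 ± 0.07 and Bub1b, which encodes the BubR1 inhibitor of Cdc20, averaged -0.04 ± 0.15, both with overlapping pools. Ttk, the Mps1 kinase at the top of the checkpoint, was well above background in 0 of 4 channels and is not counted. On mm8 the Mad2l1 probe lies on chromosome 6 from 66468570 to 66468629, and that of Bub3 spans chromosome 7 from 131359855 to 131362071.

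In the chromosomal passenger complex, which corrects faulty attachments, the differences were small. Incenp, its scaffold, was the lowest, with levels of 1227 and 1142 in the transgenic pool against 1243 and 1291 in the control pool. Its log2 ratios were -0.02 and -0.18, a mean of -0.10 ± 0.11. Birc5, or survivin, was the highest and one of the brightest genes of the list. It read 2155 and 2069 in the transgenic pool and 2131 and 2030.3 in the control pool, or 0.02 ± 0.0075, with overlapping pools. Aurkb, the Aurora kinase of this complex, averaged 0.01 ± 0.08 with overlapping pools, beside -0.24 for Aurka. Cdca8, the borealin subunit, averaged -0.05 ± 0.02.

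Genes of the centromere and kinetochore included the one with the widest spread between the arrays. Cenpf, a large kinetochore protein, read 772 and 630.0 in the transgenic pool and 590.0 and 684 in the control pool. Its ratios had opposite signs, 0.39 and -0.12, and the SD of 0.36 was the largest of the list. Cenpa, the histone H3 variant that marks centromeres, had levels of 364 and 331 in the transgenic pool, against 307 and 325 in the control pool. The Cenpa mean was 0.14 ± 0.16; the pools did not overlap, but array 2 alone gave 0.03. Cenpe, a kinesin of the kinetochore, had levels of 1188 and 1106 in the transgenic pool, against 1190.2 and 1263 in the control pool, or -0.10 ± 0.13. Its other probes averaged up to 0.04, so the sign was not shared between probes. Ndc80, a subunit of the complex that grips microtubules (Kntc2 on the array), averaged -0.02 ± 0.13.

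Of the 6 other kinesin motors, 4 were below 0 on both arrays and none was called. Kif20a, a motor of the central spindle in cytokinesis, was the lowest, with levels of 573 and 551 in the transgenic pool against 632 and 591 in the control pool. Its log2 ratio was -0.12 ± 0.03 and the pools did not overlap. Kif22, a motor on chromosome arms, averaged -0.10 ± 0.05, Kif11, which pushes the spindle poles apart, -0.10 ± 0.05, and Kif23, of the midbody, -0.06 ± 0.01. A second Kif23 probe read 0.02, and Kif11 averaged -0.20 with an offset of 0. Kif2c, which takes microtubules apart at centromeres, is the dimmest gene of the list and had opposite signs, -0.23 and 0.07. Kif4, a chromosome-bound motor, was the highest, with levels of 215 and 227 in the transgenic pool and 223 and 215 in the control pool, or 0.01 ± 0.09.

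The remaining genes overlapped between the pools. Tpx2, which activates Aurka on the spindle, read 153 and 161 in the transgenic pool and 150.4 and 167 in the control pool, or -0.01 ± 0.06. Nusap1, which bundles microtubules near chromosomes, read 467 and 489 in the transgenic pool and 485 and 428 in the control pool, or 0.07 ± 0.18. Neither of the general markers of dividing cells had 1 sign on both arrays. Top2a, the topoisomerase that untangles chromosomes, had levels of 238 and 264 in the transgenic pool and 277 and 254 in the control pool, or -0.08 ± 0.19. Mki67, which encodes Ki-67, had levels of 2334 and 2549 in the transgenic pool and 2408 and 2205 in the control pool. Its brightest probe averaged 0.08 ± 0.18 and its other probe -0.07. Hmmr, a spindle protein that also binds hyaluronan, was well above background in 1 of 4 channels and was not measured.

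Members of the list agreed between the arrays about as much as genes in general. Between the arrays the log2 ratios had r = 0.370 and rho = 0.367 over the 32 genes, beside r = 0.311 and rho = 0.240 over all genes. These are descriptions across genes that share 2 arrays. The SD between arrays had a median of 0.079 in the list and 0.090 over all genes, and the means of the list spread with an SD of 0.124, against 0.139 over all genes. Of the 10 genes with several measured probes, 6 had the same sign at every probe; Mki67, Ccnb1, Kif23 and Cenpe did not.

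**Figure D3:**
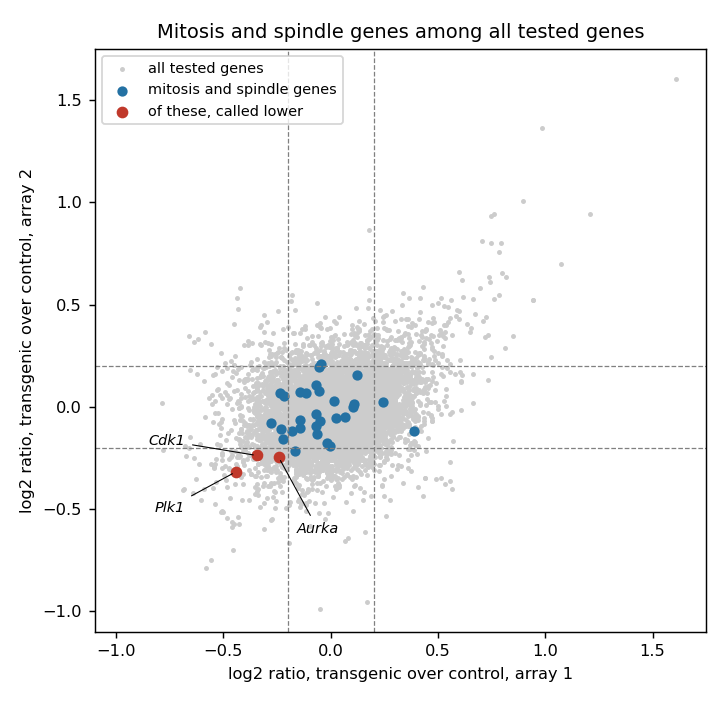
Log2 ratio of transgenic over control on array 1 (x) against array 2 (y) for all 9397 genes (grey) and the 32 genes of the list (blue, or red where called lower), with dashed lines at 0.2 in each direction. Plk1, Cdk1 and Aurka are the 3 genes of the list in the lower left corner; none is in the upper right corner.

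The log2 ratios were also set beside the promoter elements, in 6 splits of the same genes. Of the 27 measured genes with a promoter in the table, 20 had a CCAAT box and a cell cycle homology region. Their median log2 ratio was -0.10, 14 of them were below 0 on both arrays, and they include Plk1, Cdk1 and Aurka. The other 7 were Bub1, Birc5, Kif2c, Nusap1, Nek2, Ndc80 and Mad2l1, with a median of 0.02 and none below 0 on both arrays. Over all measured genes with a promoter, the same split gave medians of -0.0127 in the 655 genes with both elements and -0.0050 in the 6129 without both. Called lower were 2.9% and 2.4% of them, and below 0 on both arrays 31.8% and 30%. The splits by TTTAAA and by the number of CCAAT boxes differed less. With and without TTTAAA the medians were -0.08 and -0.07, with 4 of 9 and 10 of 18 genes below 0 on both arrays. With at least 2 CCAAT boxes and with fewer they were -0.08 and -0.06, with 9 of 16 and 5 of 11. For CCAAT alone the medians were -0.09 with it and 0.02 without, and for TTTGAA -0.09 and 0.02, about as far apart as for both elements. They lay furthest apart for either form of the cell cycle homology region, at -0.08 and 0.06, with as few as 4 genes without. The splits were made after values were seen and the differences within the list were not tested.

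**Figure D4:**
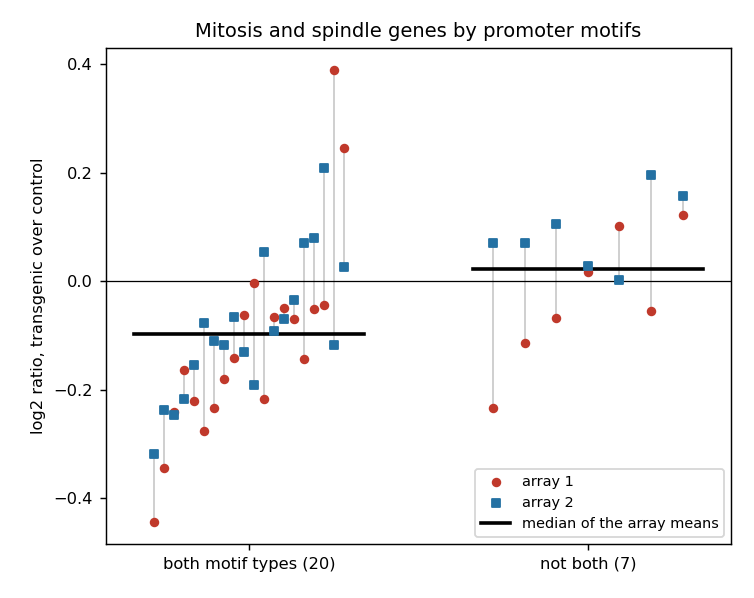
Log2 ratio of transgenic over control on array 1 (circles) and array 2 (squares) for the 20 genes of the list whose promoter holds a CCAAT box and a cell cycle homology region, and for the 7 whose promoter does not hold both, each ordered by mean. The thick lines are the medians of the array means, -0.10 and 0.02.

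Other genes of mitosis, from 5 further lists, were nearly all below the threshold. Of 127 such genes 117 were measured, with a median of -0.02. Of these, 1 was called lower (2.34% of all genes) and none higher (2.99% of all genes). Below 0 on both arrays were 40 of the 117 (29.1% of all genes) and above 0 on both 15 (28.3% of all genes). Tubg1, the gamma-tubulin that seeds microtubules at centrosomes, was the gene called. It had levels of 140.0 and 146 in the transgenic pool, against 170 and 176 in the control pool, a log2 ratio of -0.27 ± 0.01. The 29 other measured genes of spindle motors and cytokinesis gave no call, and the median of all 30 was -0.07.

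Other subunits and partners of the anaphase-promoting complex had a median of -0.05, with 0 of 15 called in either direction. The largest differences there were in Anapc11, its RING subunit, at -0.19 ± 0.07 (another probe averaged -0.07), and Fbxo5, the inhibitor Emi1, at -0.17 ± 0.07. Regulators of mitotic entry had a median of -0.01 with 0 of 22 called. Pbk, a mitotic kinase, averaged -0.22 ± 0.12, and Cdca3, a trigger of mitotic entry, 0.20 ± 0.06, or 0.08 at its other probe. Condensin and cohesin genes had a median of -0.0096 with 0 of 20 called. Highest there were Pttg1, the securin that inhibits separase, at 0.21 ± 0.18 and Stag1, a cohesin subunit, at 0.21 ± 0.10, or 0.07 at its other measured probe. Other kinetochore and checkpoint genes had a median of -0.0038 with 0 of 30 called, the largest differences being -0.16 for Ska2 and -0.15 for Zw10.

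DNA replication precedes mitosis, and its genes were called about as often as genes in general. Of 46 replication genes 44 were measured, with a median of -0.05. Called lower was 1 (2.34% of all genes) and called higher 1 (2.99% of all genes). Below 0 on both arrays were 17 (29.1% of all genes), and 5 were above 0 on both (28.3% of all genes). Mcm10, a factor that starts replication forks, fell, with levels of 229 and 227 in the transgenic pool against 280.4 and 261 in the control pool, or -0.25 ± 0.07. Rfc1, the large subunit of the clamp loader, rose, with levels of 253 and 258 in the transgenic pool against 217 and 205 in the control pool, or 0.28 ± 0.08. No other replication gene was called.

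**Figure D5:**
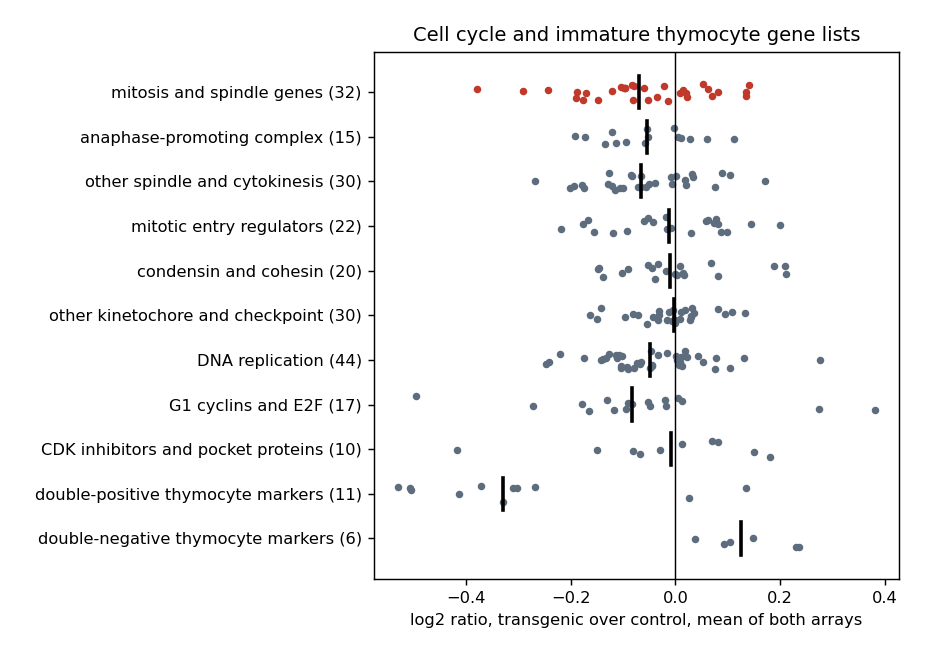
Mean log2 ratio of transgenic over control for each measured gene of 11 lists (points) with the list's median (bars), and the number of genes measured in parentheses. The mitosis and spindle genes have a median of -0.07, the double-positive thymocyte markers -0.33 and the double-negative thymocyte markers 0.13. The double-positive list holds Ptcra, Rag1 and Dntt, which double-negative thymocytes express as well.

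Markers of thymocyte stages moved further than the mitosis genes. In bulk thymus, fewer cells of a type and less RNA per cell cannot be told apart. Of 12 markers of double-positive thymocytes 11 were measured. Of these, 9 fell (2.34% of all genes) and none rose (2.99% of all genes), with a median of -0.33. Cd1d1 (0.03) and Tcf12 (0.13) were not called. The list also holds Ptcra (-0.30), Rag1 and Dntt, which double-negative thymocytes express as well. Levels summed over the 11 markers were 21894 and 21769 in the transgenic pool, against 27941 and 28348 in the control pool. Cd8a, a chain of the Cd8 coreceptor, had levels of 1576 and 1742 in the transgenic pool, against 2239 and 2477 in the control pool, or -0.51 ± 0.0007. Ccr9, a chemokine receptor of immature thymocytes, fell by 0.53. Rag1, the recombinase that assembles receptor genes, fell by 0.31 and Dntt, which adds bases at the joints, by 0.42. Rag2 was well above background in 0 of 4 channels.

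Of 10 markers of double-negative progenitors 6 were measured, with a median of 0.13. Of these, 1 rose (2.99% of all genes), Notch3 at 0.24 ± 0.03, and none fell (2.34% of all genes). Their summed levels were 848 and 867 in the transgenic pool, against 758 and 779 in the control pool; Hes1, Erg and Spib were well above background in 0 of 4 channels and Kit in 2. Of 9 adipocyte markers 5 were measured, and 3 of these (Cfd, Car3 and Cidec) passed the filter through the transgenic pool alone, so that they had to be higher there. Fabp4 and Lpl, well above background in all 4 channels, rose by 0.78 and 0.38. Fabp4 had levels of 1139 and 1130.3 in the transgenic pool, against 679 and 647 in the control pool. Lpl read 120.5 and 119.6 in the transgenic pool, against 91.3 and 93.5 in the control pool. Both measured erythroid markers rose (2.99% of all genes), with sums of 1254 and 1404 in the transgenic pool against 763 and 755 in the control pool. Thymic epithelial markers summed to 13356 and 13577 in the transgenic pool, against 12323 and 11445 in the control pool, with 3 of 9 called higher (2.99% of all genes). Mature T cell markers summed to 5221 and 5171 in the transgenic pool, against 6850 and 5698 in the control pool. Of the 8 measured, 1 was called lower (2.34% of all genes) and 2 higher (2.99% of all genes). Above 0 on both arrays were 4 (28.3% of all genes), and the median was 0.13. The gene called lower, Klf2, a transcription factor of T cells leaving the thymus, had levels of 2681 and 2568 in the transgenic pool, against 4308 and 3390.4 in the control pool, and so carried the lower sum. None of 7 macrophage markers and not the 1 measured B cell marker was called. These lists moved in the same 2 pools as Plk1, Cdk1 and Aurka, and their part in the result was not tested.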

How the data were processed

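The labels give 1 pool of RNA from 4 mice per genotype, 500 ng of RNA for labelling, and exchanged dyes on 2 arrays. The deposited scanner files hold mean and local background intensity per spot and channel on a linear scale, and the file headers name Agilent Feature Extraction 9.5.1.1. That software also gave, per the file headers, processed intensity (spatial detrending, lowess dye normalization, surrogates for dim spots) and log10 ratios of red over green. The log10 values of the deposited series table equal the ratio of the processed signals, red over green, within 5e-10; the table is not turned for the dye swap, and its medians are -0.113 and -0.101. No further step by the authors is stated in those sources.

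Transcripts had 41534 spots per array, beside 2256 control spots. Mean signals were background-corrected by normexp (offset 50) and loess-normalized within arrays, with control spots and outlier spots (46 and 37) at weight 0, in limma 3.58.1 (R 4.3.3). Array 2 was multiplied by -1. Levels come from the same values after Aquantile scaling between arrays. A probe was kept if either genotype's channel was well above background on both arrays (12235 of 41174), and the brightest probe stood for each gene (9397). Names came from RefSeq (GRCm38.p6): 23374 probes by accession, 6733 by symbol, 2919 by synonym, and 8148 kept the array's name. Probe positions are on mm8, without an annotation of mm8, so exon or UTR is not given. Precision is limited by the number of arrays and by the single pool per genotype.

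The genes, the lists and the rules were chosen with earlier results of these data known. Named are all 34 genes, with both pools' levels for the called ones and the highest and lowest of each role. Of other lists, up to 4 called genes are named or, with none called, the 2 with the largest differences. The rule was not applied to erythroid, epithelial, mature T cell, macrophage and B cell markers, of which only Klf2 is named. Ccnb2, Espl1 and Cenpf levels, and the markers Rag1, Ptcra, Cd1d1, Tcf12 and Lpl, were added after their values were seen. A gene that this rule takes is not reported here. Calling and normalization were tested on simulated data, where small changes were often missed and ratios came out smaller than simulated. Alternatives were other background corrections, normalizations, filters, probe rules, thresholds, single arrays and limma's test over both arrays.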

Additional observations from a re-analysis of the deposited data

How the results depend on the processing

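The count of 3 genes called lower was 0 with median centring of each array (0.106% of all genes), where the arrays, both read as transgenic over control, had r = -0.454 across genes; the cause was not tested. Plk1, Cdk1 and Aurka then read 0.206, 0.067 and 0.411 on array 1 and -1.091, -0.745 and -1.017 on array 2. A threshold of 0.1 on each array gave 8 called lower (8.91% of all genes) and 1 called higher (Mad2l1, 10% of all genes). A threshold of 0.3 left 1, Plk1 (0.575%). limma's moderated test over the 2 arrays, taken as separate measurements, also called 1 lower, Plk1, with an adjusted p of 0.0433 (0.617% of all genes lower). It called 0 higher (0.99% of all genes). The adjusted p of the same test was 0.146 for Cdk1 and 0.237 for Aurka, so neither was called. These p-values rest on the spread between 2 arrays of the same pools and hold no spread between animals. With 1 array left out, between 4 (without replicate 1, 9.28% of all genes) and 8 (without replicate 2, 11.2%) were lower and between 1 (Mki67, 7.28%) and 2 (Cenpa and Cenpf, 14.2%) were higher, since the rule then asks for 1 array only. An offset of 0 gave 4 called lower, Espl1 added, where 6.54% of all genes were called lower; the series table and the software's log ratios gave the same 4, with 7.42% of all genes. The remaining alternatives gave 3 called lower, where between 0.798% and 2.8% of all genes were called lower. Below 0 on both arrays was 1 gene with median centring, where 4.46% of all genes were. Under the other alternatives with both arrays 14 to 16 were, beside 25.9% to 30% of all genes. The median of the list was -0.085 with an offset of 0, -0.108 with median centring (all genes -0.035), -0.082 from the series table and from the software's log ratios, -0.056 with no filter on dim probes, -0.051 with the mean over probes, and between -0.067 and -0.060 with 1 array left out. The mean of Plk1, Cdk1 and Aurka was below 0 under all the alternatives that give a value per gene. No paired analysis was possible because each genotype is 1 pool and both pools are already compared within each array. The offset of 50 limits the ratios of dim probes such as those of Kif2c and Espl1.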

Other observations

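Among regulators of the step before replication, genes were called in both directions. Ccnd3, the D-type cyclin that immature thymocytes use to divide after pre-T cell receptor signals, fell, with levels of 806 and 958 in the transgenic pool against 1387 and 1109 in the control pool. Its log2 ratios of -0.78 and -0.21 gave -0.50 ± 0.40, so the size was not shared between the arrays. Ccnd2, another D-type cyclin, rose, with levels of 395 and 379 in the transgenic pool against 326 and 313 in the control pool, or 0.28 ± 0.0012. All 3 Ccnd2 probes were higher, between 0.15 and 0.28. Tfdp2, a partner of E2F factors, rose by 0.38 ± 0.17. Of the 17 measured genes of G1 cyclins and E2F factors, 1 was called lower (2.34% of all genes) and 2 higher (2.99% of all genes). The median of the list was -0.08.

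Among 10 measured CDK inhibitors, pocket proteins and related brakes on division, 1 was called lower (2.34% of all genes) and none higher (2.99% of all genes). Btg2, an antiproliferative gene, fell, with levels of 681 and 625 in the transgenic pool against 887 and 857 in the control pool, or -0.42 ± 0.05. All 3 Btg2 probes were lower, between -0.42 and -0.20. The median of that list was -0.0086.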
